A study of Mus musculus with 7 samples.

Results

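Genomic occupancy of Runx3, a transcription factor of the RUNX family, and of H3K4me1, a histone mark of enhancers, was examined at the 8 genes that encode the signalling chains of the T cell receptor (TCR) and its first kinases and adaptors: Cd3d, Cd3e, Cd3g, Cd247, Lck, Zap70, Lat and Lcp2. A called region was assigned to a gene when its midpoint lay in the gene body or within 20 kb of it, on the mouse build mm9 with the GENCODE annotation of that build (NCBIM37). This gave 12 of the 4934 Runx3-bound regions and 84 of the 76705 H3K4me1-marked regions. They fell into 6 loci, since Cd3g, Cd3d and Cd3e are neighbours on chromosome 9 and their windows overlap.

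The chromatin came from resting splenic CD8+ T cells (CD8-TC) of wild type ICR mice, pooled from 18 animals and enriched on anti-CD8 magnetic beads. The labels and methods give no mutation or treatment for these animals, their age was not given in the sources used here, and the purity after bead enrichment was above 95% per the labels. The 7 ChIP-seq libraries were 3 for Runx3, immunoprecipitated with a polyclonal antibody made in house and coming from 2 repeats, 2 for H3K4me1 with a monoclonal antibody, and 2 controls with non-immune rabbit serum (NIS). Peaks of each antibody were called on joined repeats, so the values below have no replicate error. The lists hold positions only, with neither height nor read count, so how many reads lie behind any one of them is not known. Intervals are 95% Wilson intervals that cover counting error over regions.

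The TCR itself has no enzymatic activity. Its antigen-binding chains are joined to the invariant CD3 chains (gamma, delta and epsilon, from Cd3g, Cd3d and Cd3e) and to the zeta chain (from Cd247), whose cytoplasmic tails carry tyrosine motifs. Lck, a Src family kinase held at the CD8 and CD4 co-receptors, phosphorylates these motifs, Zap70 is a kinase that docks on them, and Zap70 then phosphorylates the membrane adaptor LAT and the cytosolic adaptor SLP-76, which is encoded by Lcp2. RUNX factors bind DNA through the Runt domain at the canonical motif, searched here on both strands as TGTGGT, as its variant TGTGGC, and as the variants with CpG, TGCGGT along with TGCGGC.

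The sequences of 7 of the 12 Runx3-bound regions are shown first, because these are the places at which the start sites and introns of the 8 genes were occupied. Each run is the 200 bp around the midpoint of a region, taken from the mm9 genome and written 5′ to 3′ on the strand of the gene. The runs at the Lck and Lat 5′ ends stop at the annotated transcription start site (TSS), which left 161 and 163 bp. Capitals mark RUNX motifs, which read as spelled above when they lie on the printed strand. On the other strand TGTGGT appears as ACCACA, whereas TGTGGC appears as GCCACA. Likewise TGCGGT appears as ACCGCA, whereas TGCGGC appears as GCCGCA.
Lck 5′ end, chr4:129250886-129251046, minus strand: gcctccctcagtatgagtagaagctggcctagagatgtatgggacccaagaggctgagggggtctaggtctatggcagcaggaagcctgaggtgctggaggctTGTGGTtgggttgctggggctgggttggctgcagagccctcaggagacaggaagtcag
Lck downstream start sites, chr4:129235671-129235870, minus strand: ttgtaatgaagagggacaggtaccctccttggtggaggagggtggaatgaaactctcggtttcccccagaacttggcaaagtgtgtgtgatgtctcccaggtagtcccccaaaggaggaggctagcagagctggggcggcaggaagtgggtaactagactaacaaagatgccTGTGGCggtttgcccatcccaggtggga
Lat 5′ end, chr7:133513058-133513220, minus strand: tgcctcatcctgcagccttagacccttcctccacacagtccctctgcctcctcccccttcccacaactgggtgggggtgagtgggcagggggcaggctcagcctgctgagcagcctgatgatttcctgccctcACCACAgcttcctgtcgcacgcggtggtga
Zap70 intron, chr1:36823841-36824040, plus strand: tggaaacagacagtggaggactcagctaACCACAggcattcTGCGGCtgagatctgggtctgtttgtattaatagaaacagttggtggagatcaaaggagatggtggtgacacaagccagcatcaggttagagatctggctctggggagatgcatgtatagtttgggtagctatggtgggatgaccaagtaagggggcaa
Cd3d intron, chr9:44792486-44792685, plus strand: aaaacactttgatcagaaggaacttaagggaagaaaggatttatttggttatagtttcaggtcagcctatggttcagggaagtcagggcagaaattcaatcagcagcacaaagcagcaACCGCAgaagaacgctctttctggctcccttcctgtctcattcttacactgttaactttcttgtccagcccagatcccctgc
Cd247 intron, chr1:167779100-167779299, plus strand: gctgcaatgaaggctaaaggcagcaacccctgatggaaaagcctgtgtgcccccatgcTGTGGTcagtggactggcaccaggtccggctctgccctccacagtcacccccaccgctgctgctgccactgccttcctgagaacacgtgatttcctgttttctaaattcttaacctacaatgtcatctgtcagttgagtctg
Lcp2 intron, chr11:33964076-33964275, plus strand: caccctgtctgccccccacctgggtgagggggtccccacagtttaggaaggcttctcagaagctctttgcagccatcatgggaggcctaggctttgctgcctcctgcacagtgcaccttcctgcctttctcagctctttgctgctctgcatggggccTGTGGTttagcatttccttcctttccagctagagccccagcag

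All 8 genes had a Runx3-bound region by this rule, whereas 4429 of 22350 protein-coding genes (19.8%) did. Cd3e, Cd3g and Lck had the most, with 3 regions in the window of each, a number reached or exceeded by 1.35% of protein-coding genes, and Cd3d and Cd247 each had 2, reached or exceeded by 4.67%. Zap70, Lat and Lcp2 had 1 region each. The windows of the CD3 genes shared 2 regions, both in Cd3d, so these 3 counts are not independent. When a region was instead assigned to the gene of its nearest protein-coding TSS, 7 of the 8 genes had one, all but Cd3g. The share of all genes by that assignment was not computed. Body length was considered too, and among the 13589 protein-coding genes whose bodies were between 5260 and 88596 bp, the shortest and the longest of the 8, 21.0% had a Runx3-bound region. H3K4me1 was considered likewise, and among the 3748 genes whose windows were covered by H3K4me1 at least as much as that of Zap70, the least covered of the 8, 50.3% had one. In bulk chromatin, a region present in fewer cells and a region weakly occupied in all cells cannot be told apart.

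**Figure D1:**
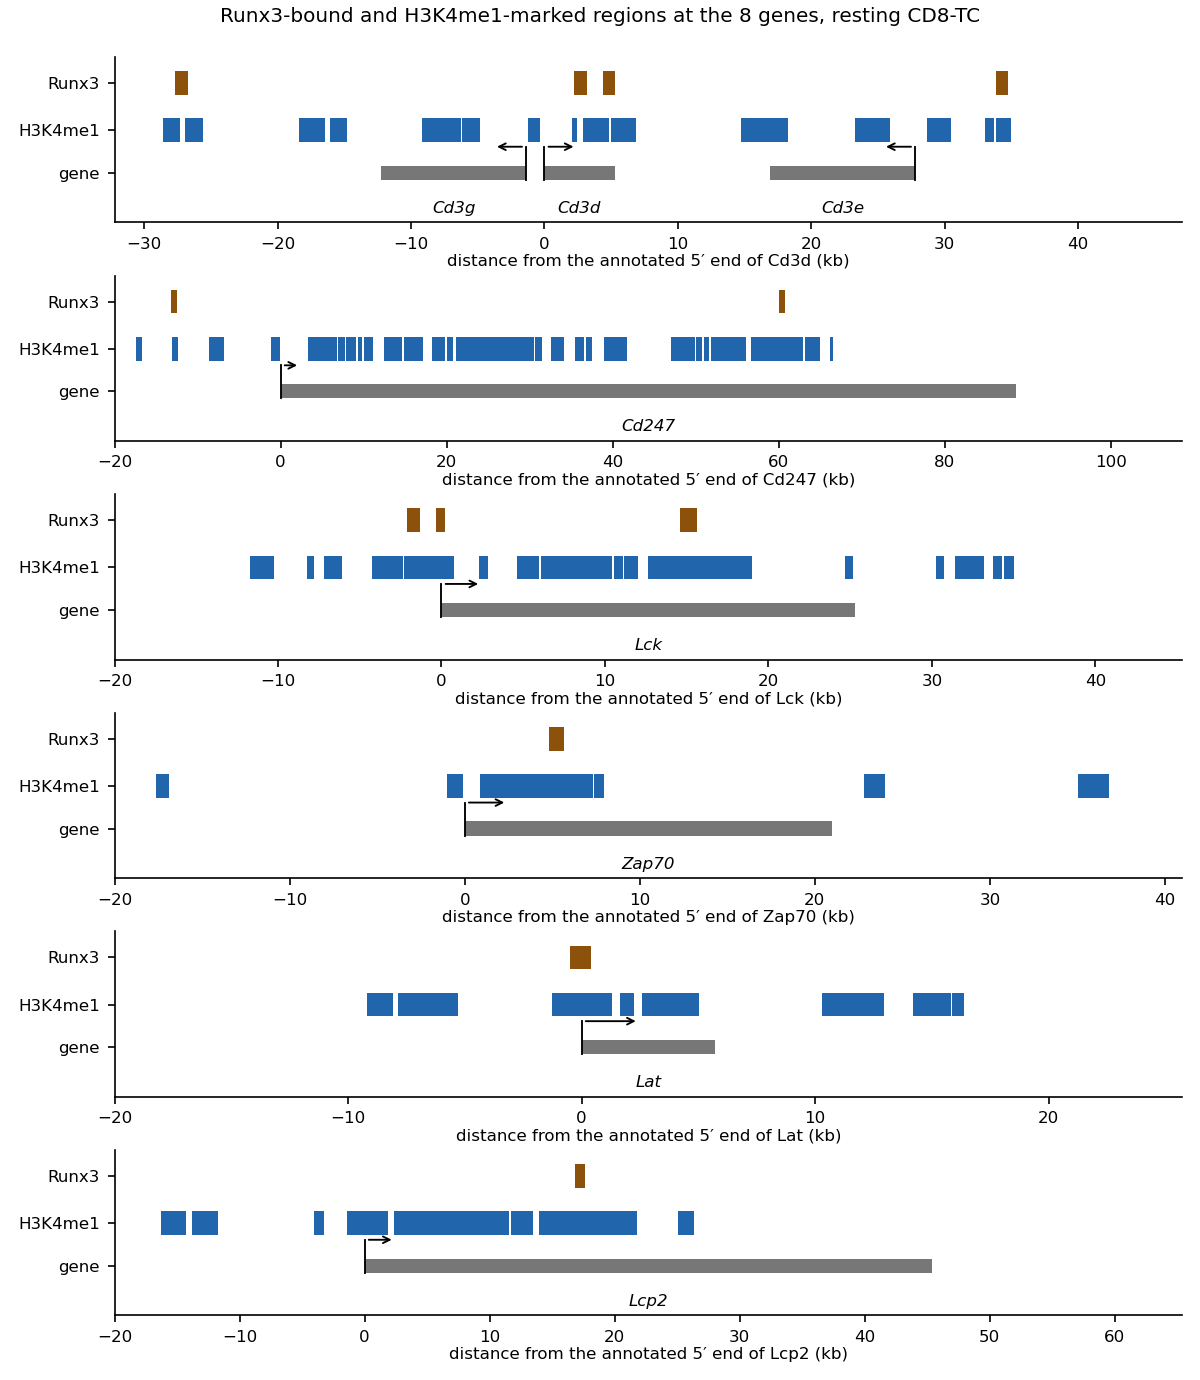
Map of the 6 loci, with distance in kb from the annotated 5′ end of the gene named under each axis, in the direction of its transcription. Brown boxes are the 12 Runx3-bound regions, blue boxes the 84 H3K4me1-marked regions, and grey bars the bodies of the 8 genes, with arrows at their 5′ ends; other genes are not drawn. Every brown box lies over a blue one, and those of Lck and Lat include ones at the arrow.

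The CD3 cluster held 4 Runx3-bound regions (chromosome 9). Cd3d, which lies between Cd3g and Cd3e and is transcribed away from Cd3g, carried both of the shared ones. The first, at 44792124 to 44793046, was in the first intron of Cd3d, 2709 bp downstream of its TSS. It was 923 bp wide and held 2 RUNX motifs, of which a TGCGGT was centred 21 bp from the midpoint, as printed above. The second, at 44794268 to 44795180, was centred on the last, untranslated part of Cd3d, 4848 bp from the TSS, and was 85.4% exonic. It was 913 bp wide and held 4 RUNX motifs, the largest number among the 12 regions, with 3 of them within 100 bp of the midpoint. The midpoints of these regions were 2139 bp apart.

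The other regions of the cluster lay outside the CD3 genes. One, at 44823755 to 44824618, was intergenic, 6513 bp upstream of the Cd3e TSS, and held 2 TGTGGT motifs, both more than 100 bp from its midpoint. The other, at 44762215 to 44763187, lay in the third intron of Ube4a, a ubiquitin ligase gene whose TSS was nearer (10907 bp) than that of any CD3 gene, and it fell in the Cd3g window alone. It held 1 RUNX motif, 432 bp from the midpoint, which is the largest such distance among the 12. None of the 4 midpoints lay within 1 kb of a TSS of Cd3g, Cd3d or Cd3e.

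Cd247, the longest of the genes with a body of 88596 bp on chromosome 1, had 2 Runx3-bound regions. That at 167778852 to 167779547 was in the first intron, 60387 bp downstream of the 5′ end, and was 696 bp wide. It held 2 TGTGGT motifs, the nearer 39 bp from the midpoint. That at 167705588 to 167706359 was intergenic, 12839 bp upstream of Cd247, and the start of the neighbouring gene Creg1 was nearer (6366 bp). It held 1 motif, a TGCGGT. The annotation also places the start of a non-coding Cd247 transcript 9148 bp downstream of the intronic region. Of both regions, the intronic one alone had a member TSS as its nearest protein-coding start. Over all 8 genes this was true of 10 of the 12 regions, the exceptions being those nearer to Creg1 and to Ube4a.

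Lck on chromosome 4 was occupied at both of its sets of start sites. This gene is known for a distal promoter at its 5′ end, used in mature T cells, and a proximal promoter nearer to the coding exons, used mainly in thymocytes. The annotation held 1 TSS at the 5′ end and 6 more between 15250 and 17793 bp downstream of it. Of the downstream ones, those at 15250 and 15269 bp belonged to protein-coding transcripts and the rest did not. The Runx3-bound region at 129250648 to 129251244 had its midpoint 61 bp upstream of the 5′ end. At 597 bp it was the narrowest of the 12, with 7.40% of all Runx3-bound regions narrower, and it held 1 RUNX motif, a TGTGGT centred 6 bp from the midpoint, the closest of the 12. The region at 129235247 to 129236293 had its midpoint 135 bp upstream of the first of the downstream start sites and spanned that site. It did not reach the start sites between 17182 and 17793 bp downstream of the 5′ end. It was the widest of the 12, at 1047 bp, and held 3 RUNX motifs of different form, the TGTGGC nearest to the midpoint at 75 bp. The remaining region, at 129252203 to 129252968, lay 1700 bp upstream of the 5′ end, 1639 bp from its neighbour, and held 2 TGTGGC motifs and no other RUNX motif.

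Lat on chromosome 7 resembled the Lck 5′ end in that its single Runx3-bound region, at 133512672 to 133513569, was centred 63 bp upstream of its only annotated TSS. The region was 898 bp wide, had the highest GC content of the 12 (63.8%, against a median of 45.9% over all Runx3-bound regions) and held 3 RUNX motifs. The TGTGGT nearest to the midpoint, at 36 bp, was separated by a single base from the ETS motif AGGAAG on the same strand. It is the ACCACA of the printed run. Counting Lck and Lat, 2 of the 8 genes had a Runx3 midpoint within 1 kb of one of their start sites, against 4.59% of protein-coding genes.

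Zap70 and Lcp2 were occupied inside the gene and not at the start. The Zap70 region (chromosome 1, 36823511 to 36824369) was in the first intron, 5245 bp downstream of the 5′ end and 859 bp wide. Its 3 RUNX motifs included a TGTGGT and a TGCGGC on opposite strands, centred 69 and 56 bp from the midpoint and on the same side of it. The Lcp2 region (chromosome 11, 33963788 to 33964562) was in the third intron, 17255 bp downstream of the 5′ end and 775 bp wide, and held 2 TGTGGT motifs. It also lay within an intron of 4930469K13Rik, a non-coding transcript on the opposite strand. Lcp2 was the most isolated of the genes, as the next Runx3-bound region beyond its window was 451722 bp from the gene body, against 129079 bp for Zap70 and 86908 bp for Lck.

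At the limit of the 20 kb rule, the farthest Runx3 midpoint inside a window was 14954 bp from a gene body (Cd3g). The nearest ones outside all windows were 23223 bp from Cd247, where Pou2f1 had the nearest TSS, and 30224 bp from Lat, where Nfatc2ip had it. For H3K4me1 the farthest midpoint inside was 19311 bp (Cd3d) and the nearest outside 20362 bp (Cd3e).

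All 12 Runx3-bound regions overlapped H3K4me1 by at least 1 bp (100%, interval 75.8 to 100%). Over the whole list this share was 78.8% (77.7 to 79.9%). Among the 3700 Runx3-bound regions that lay, like these, within 20 kb of a protein-coding gene it was 86.3% (85.1 to 87.3%), and the interval of the 12 includes both shares. Of the 12, 8 were covered over their whole width: the region upstream of Cd3e, the intronic region of Cd247, all 3 of Lck, and those of Zap70, Lat and Lcp2. In the introns of Lcp2, Cd247 and Zap70 the midpoint lay deep inside a wide H3K4me1-marked region, 3317, 2580 and 2103 bp from the nearest edge. The H3K4me1-marked regions at these places were 7832, 6341 and 6467 bp wide. At the Lck downstream start sites, where the midpoint was also intronic, it was 1895 bp from the edge of a region of 4360 bp.

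At 3 of the 4 regions of the CD3 cluster Runx3 spanned a break in the mark, the exception being the region upstream of Cd3e. The Cd3d intron region, the Cd3d 3′ region and the Ube4a intron region each overlapped 2 H3K4me1-marked regions and spanned the gap between them, of 462, 106 and 360 bp. In the Cd3d and Ube4a introns the Runx3 midpoint was itself in the gap, and at the Cd3d 3′ end it was 30 bp from the edge. H3K4me1 covered 49.9% of the Cd3d intron region, the lowest share of the 12. Among all Runx3-bound regions 10.5% (9.71 to 11.4%) overlapped 2 or more H3K4me1-marked regions and 4.60% (4.05 to 5.22%) had the midpoint in the gap, and within 20 kb of a protein-coding gene these shares were 11.7% and 5.43%. The 3 and 2 of 12 seen here are 25.0% (8.89 to 53.2%) and 16.7% (4.70 to 44.8%), and neither the height of the mark nor its dip can be read from the lists.

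H3K4me1 was dense at all 8 genes. It covered 33.6% of the 466 kb in the joined windows and 4.14% of the chromosomes. By gene, the covered share of the window was 40.4% for Cd3d, 40.3% for Cd247, 39.4% for Lck, 37.3% for Cd3g, 32.9% for Lcp2, 30.7% for Lat, 29.4% for Cd3e and 19.2% for Zap70. Thus Zap70 was the lowest and the others lay between 29.4 and 40.4%, where the median over protein-coding genes was 5.75%. Of all protein-coding genes, 83.2% were below Zap70 and 93.0 to 97.5% below the other members. A window with an H3K4me1-marked region was in itself common (73.6% of protein-coding genes).

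**Figure D2:**
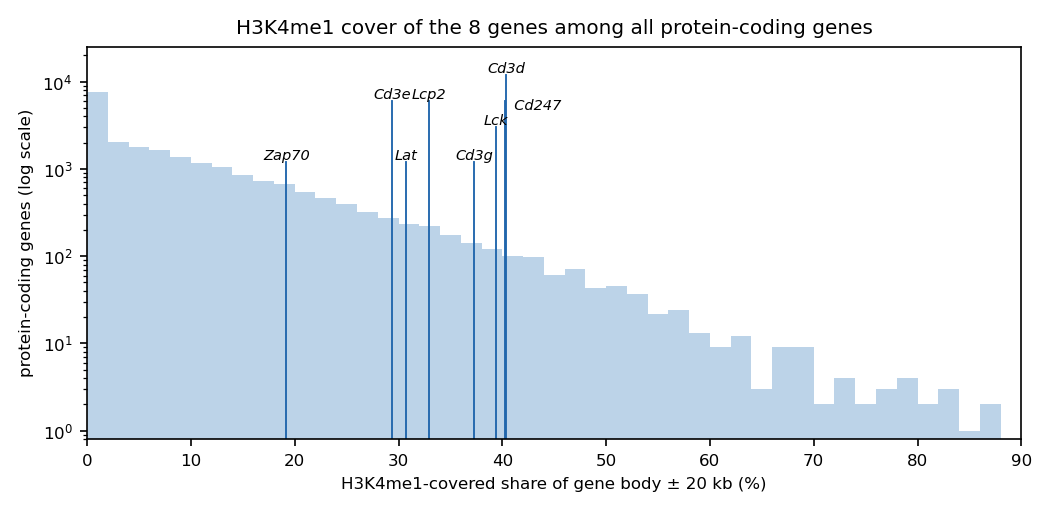
H3K4me1-covered share of the gene body with 20 kb on each side, in percent on the horizontal axis, for all protein-coding genes as a histogram in bins of 2 percentage points with a logarithmic count axis. The vertical lines mark the 8 genes, with Zap70 at 19.2% and the others between 29.4 and 40.4%.

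The mark was arranged differently along the genes. Cd247 had the largest number of H3K4me1-marked regions, 28, and Zap70 the smallest, 6. None of those of Cd247 lay beyond position 167785371, so the last part of the gene and the 20 kb after it were unmarked, and the widest of them, at 167740874 to 167749335 in the gene body, measured 8462 bp. Lcp2 had 8 regions but among them the widest of the 84, 9138 bp at 33949308 to 33958445 in the 5′ part of the gene, and 99.5% of all H3K4me1-marked regions were narrower. The widest was 6467 bp at Zap70, 4360 bp at Lck and 2570 bp at Lat. The widest of the CD3 cluster, 3497 bp at 44804607 to 44808103, ran across the 3′ end of Cd3e and held no Runx3-bound region. Over all 84 regions the median width was 1372 bp, against 979 bp for the whole list. Runx3-bound regions overlapped 13 of the 84 (15.5%), against 5.49% of the whole list.

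At the annotated 5′ ends 2 arrangements were seen. Those of Lck, Lat and Lcp2 were inside an H3K4me1-marked region, and those of Lck and Lat were also inside a Runx3-bound region. Those of Cd3d, Cd3e, Cd3g, Cd247 and Zap70 were outside the mark, with the nearest H3K4me1 edge 79 bp (Zap70) to 849 bp (Cd3e) upstream and 882 bp (Zap70) to 3430 bp (Cd3g) downstream. An unmarked 5′ end with the mark within 1 kb upstream and 4 kb downstream was found in 28.7% of all protein-coding genes, and a marked 5′ end in 17.7%. Of the 681 genes whose 5′ end was in a Runx3-bound region, 22.8% (19.8 to 26.1%) had it in an H3K4me1-marked region as Lck and Lat did, against 17.5% (17.0 to 18.0%) of the other genes.

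The RUNX motif was found in every one of the 12 regions, from 1 to 4 times, and in 88.8% (87.8 to 89.6%) of the whole list. In the 200 bp around the midpoint 9 of 12 held it (75.0%, interval 46.8 to 91.1%), against 66.0% (64.6 to 67.3%) of all Runx3-bound regions and 69.9% (68.4 to 71.4%) of those within 20 kb of a protein-coding gene. Windows of the same length 5 kb to either side held it in 6 of 24 cases (25.0%, 12.0 to 44.9%) at these loci and in 27.8% (26.9 to 28.7%) over the list. The interval of the 12 thus includes the share of the whole list. The 3 regions without a motif near the midpoint were those upstream of Cd3e, in the Ube4a intron and upstream of Lck. Of the variants, TGTGGT was near the midpoint in 6 regions, TGTGGC and TGCGGT in 2 each, and TGCGGC in 1. Over the list TGTGGT was there in 46.6%, TGTGGC in 22.4%, TGCGGT in 10.7% and TGCGGC in 5.43%.

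ETS factors are partners of RUNX factors in T cells, and their motif was searched on both strands as AGGAAA or with a last G as AGGAAG, and with a leading C as CGGAAA or, with that last G too, CGGAAG. It was present near the midpoint in 8 of the 12 regions (66.7%, 39.1 to 86.2%), against 63.8% of all Runx3-bound regions and 43.0% of the windows 5 kb away from those. At the member loci the windows 5 kb away held it in 14 of 24 (58.3%). The Lcp2 region had the most, 4, and the Lat region had 3. RUNX and ETS motifs occurred together near the midpoint in 7 of 12 regions (58.3%, 32.0 to 80.7%), against 44.3% (42.9 to 45.7%) of all. In these 7 the starts of the nearest pair that did not overlap were 7 bp apart at Lat, 12 at Lcp2, 21 and 28 at Cd3d, 24 at the Lck 5′ end, 32 at the Lck downstream start sites and 72 at Cd247, with a median of 24.0 bp against 28.0 bp over the list. The E-box forms CAGCTG and CAGGTG were near the midpoint in 5 of 12 regions and in 23.1% of all, and the AP-1 forms TGACTCA and TGAGTCA in 0 of 12 (upper Wilson limit 24.2%) and in 4.58% of all. These are matches of letters in a window and not measured sites.

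**Figure D3:**
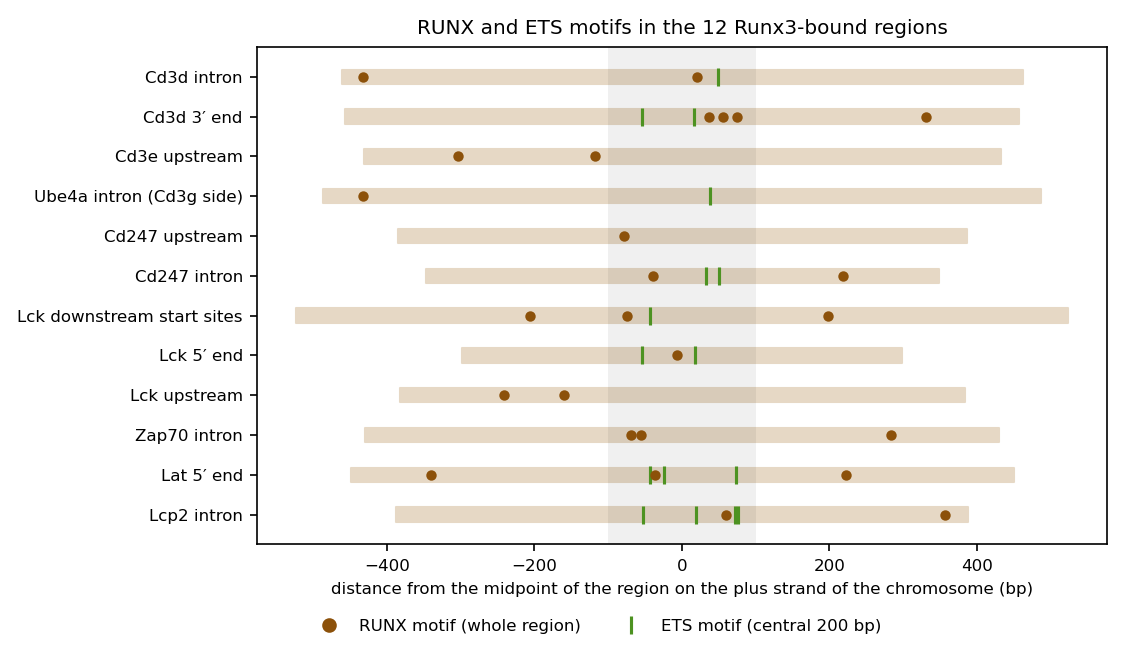
RUNX motifs (brown dots, over the whole region) and ETS motifs (green ticks, within the shaded 200 bp) in each of the 12 Runx3-bound regions, drawn as bars to scale, by distance in bp from the midpoint along the plus strand of the chromosome. In 9 of the 12 rows a dot lies in the shaded window, and the Lat row has a dot and a tick side by side.

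In width the 12 regions did not stand apart, with a median of 862 bp (597 to 1047 bp) against 851 bp over the list. Their GC content had a median of 51.9% (43.8 to 63.8%) against 45.9%. Another Runx3 midpoint lay within 10 kb of 4 of the 12 (33.3%, 13.8 to 60.9%), namely the pair in Cd3d and the pair at the Lck 5′ end, and of 18.5% (17.5 to 19.7%) of the list.

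Most of the genes that act beside or downstream of the 8 were occupied too. A list of 41 further TCR signalling genes (regulators of Lck, co-receptors, adaptors, lipid and Ras signalling enzymes, and the branch to NF-kB) was taken for comparison, and 39 were matched by name. Of these, 35 (89.7%) had a Runx3-bound region. The share was 19.8% of all protein-coding genes and 50.3% of those with at least the H3K4me1 cover of Zap70. In the list, 24 genes had 2 or more (all genes 4.67%) and 10 had one within 1 kb of a TSS (all genes 4.59%). All 39 had H3K4me1, which 73.6% of protein-coding genes had too. The 84 distinct Runx3-bound regions in their windows all overlapped H3K4me1. This held for 78.8% of all Runx3-bound regions and 86.3% of those within 20 kb of a protein-coding gene. Ptprc (the phosphatase CD45, which keeps Lck active), Prkcq (protein kinase C theta) and Cd8b1 (the CD8 beta chain) had 5 each, Ubash3b, a phosphatase that restrains TCR signals, had 4, and 8 genes had 3. The 4 genes with none were Nck1, Was, Trat1 and Rasgrp1. Their windows held between 3 and 16 H3K4me1-marked regions each. Median H3K4me1 cover was 34.0% over this list and 35.1% over the 8 members, against 5.75% over all protein-coding genes. Cover in the list ranged from 5.43 to 72.0%, so some of its genes were below Zap70. The list was not matched to all genes for cover or body length.

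The B cell receptor uses a parallel set of proteins, and its genes were counted in the same way. Of the 6 counterparts matched by name (Cd79a, Cd79b, Lyn, Blk, Btk and Blnk), 2 had a Runx3-bound region (33.3%, against 19.8% of all protein-coding genes), Cd79a with 2 and Blnk with 1. At 6 genes this share is not far from that of all genes. All 6 had H3K4me1, with a median cover of 36.2%. The marker genes of spleen cell types were looked at in the same way. The 5 CD8 T cell markers (Cd8a, Cd8b1, Cd2, Cd5 and Thy1) all had Runx3 and H3K4me1, with a cover of 29.7 to 68.1%. Of these, Cd8a, Cd8b1 and Cd5 were also in the TCR signalling list, and the windows of Cd8a and Cd8b1 overlap. Cd79a and Cd79b were in both B cell lists, so the lists are not independent. The B cell markers Cd79a, Cd79b, Ms4a1 and Pax5 all had H3K4me1, with a cover of 19.2 to 53.4%, and of these Cd79a and Pax5 had Runx3. The NK cell genes Ncr1 and Klra8 and the macrophage gene Lyz2 had regions of neither list, H3K4me1 was present at 1 of 3 NK cell and 3 of 4 myeloid markers, and Runx3 at 0 of 3 and 1 of 4. Among 5 markers of other tissues, 2 had H3K4me1 and 1 had Runx3. An H3K4me1-marked region in the window is common (73.6% of protein-coding genes), and the part of other spleen cells in the chromatin was not tested.

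**Figure D4:**
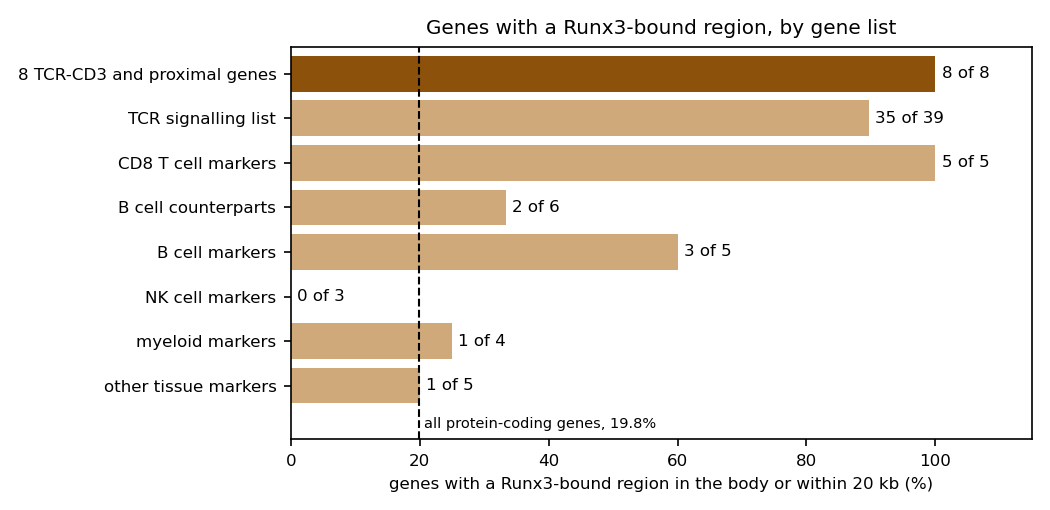
Percent of the genes in each list with a Runx3-bound region in the gene body or within 20 kb, with the count beside each bar and a dashed line at the 19.8% of all protein-coding genes. The 8 member genes and the 5 CD8 T cell markers are at 100%, and 35 of the 39 matched TCR signalling genes have a region. Some genes are shared between lists.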

How the data were processed

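ChIP-seq reads were aligned to mm9 with ELAND by the authors (the submitters' processing notes name CASAVA 1.6 and 1.7), uniquely aligned reads were kept, repeats were joined, and peaks were called with MACS against the joined NIS reads after scaling to the smaller data set. The deposited files are 1 list per antibody of chromosome, start and end in bp, without score, height or read count. Since the threshold acted on pooled reads, an absent region cannot be told from one below it.

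Starts were moved by 1 bp to count from 1. Regions, GENCODE genes and the NCBIM37 sequence are of the same build. Windows, overlaps (at least 1 bp), distances from midpoints and motif matches on both strands were computed with Python 3.11.15, numpy 2.4.6, pandas 2.3.3, scipy 1.17.1 and pysam 0.24.0, after the functions had been tested on simulated data. Motifs of different families were counted independently and may overlap. No test was run over the members, which, like the gene lists and motifs, were chosen with earlier results of these data known. All member regions are named, as are TCR signalling genes with 4 or more regions, apart from items not reported here. Alternatives were other margins, assignment, overlap, merging and motif windows.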

Additional observations from a re-analysis of the deposited data

How the results depend on the processing

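Of 25 alternatives for 8 results, 16 stayed within 1.5 times the reported count or within the interval of the share. The other 9 are counted as moved, among them 3 values of H3K4me1 cover, which has no replicate error or interval, so that any change was counted. With the gene body alone, which is a smaller target, there were 6 Runx3-bound and 48 H3K4me1-marked regions, 5 of the 8 genes had Runx3 (8.52% of all protein-coding genes by the same rule), and H3K4me1 covered 50.1%. A margin of 5 kb gave a cover of 44.5%, with Runx3 at 7 of 8 genes (all genes 13.0%), and a margin of 50 kb gave 15 Runx3-bound regions, with Runx3 at 8 of 8 genes (all genes 30.8%). Merging H3K4me1 neighbours within 1000 bp left 40 regions and a cover of 36.1%. A RUNX motif was found in 100% of whole regions and in 91.7% of windows of 400 bp, which are longer by construction. When at least 50% of the region had to be covered, 91.7% of the 12 regions had H3K4me1, and 83.3% did with the midpoint inside. No paired analysis was possible because the repeats were joined before peaks were called, and leaving 1 of them out could not be tried either.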

Other observations

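The ETS and RUNX motifs with 1 base between them at the Lat 5′ end were looked for in the whole list after they had been seen. The form AGGAAG, any base and then TGTGGT, on either strand, was present in the 200 bp around the midpoint of 16 of 4934 Runx3-bound regions (0.324%) and in 0 of 9868 windows 5 kb away (upper limit 0.0389%). Any of the 4 ETS forms followed by 1 base and any of the 4 RUNX variants was present in 39 regions (0.790%, 0.579 to 1.08%) and in 4 of the windows 5 kb away (0.0405%, 0.0158 to 0.104%). Of the 12 regions at the TCR-CD3 and proximal kinase genes, 1 held such a pair, that of Lat.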
